A study of Mus musculus with 6 samples.

Results

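The 6 genes described here encode the ectodysplasin ligand, its receptors and the adaptors that carry its signal: Eda, Edar, Eda2r, Edaradd, Tnfrsf19 and Traf6. They were taken by gene name from a table of 25700 genes, and all 6 were among the 19264 genes with enough counts to be tested. The set was chosen from the same comparison that is described below, because Eda2r stood out in the mutant, so the difference of each of the 6 between genotypes is given as a description, with its size and standard error and without a p-value. RNA was sequenced from the proximal incisor, the end where the mouse incisor grows throughout life, of 5-week-old C57BL/6 mice. The 3 mutant mice, called cKO, were Gli1-CreERT2;Runx2fl/fl, in which tamoxifen turns on a Cre recombinase in cells that express the hedgehog pathway factor Gli1 and so removes the floxed part of Runx2, a transcription factor of bone and tooth mesenchyme. The 3 control mice were Runx2fl/fl, with the floxed gene and no Cre. Per the labels' protocols, mice were injected with tamoxifen in corn oil on 3 consecutive days at 1 month of age, at 1.5 mg per 10 g body weight, and the tissue was collected 1 week after induction. Because no control carried Cre, the effects of losing Runx2 and of carrying and activating Gli1-CreERT2 cannot be told apart. The 3 libraries of a genotype come from separately numbered mice, whose numbers pair none across genotypes.

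Ectodysplasin signalling shapes teeth, hair and glands. The ligand, encoded by Eda, is a trimeric membrane protein of the tumour necrosis factor (TNF) family that is cut from the cell surface. Its A1 form binds the receptor Edar, which is made by epithelium and recruits the death domain adaptor Edaradd. The A2 form binds the receptor Eda2r, which has no death domain and reaches the ubiquitin ligase Traf6 directly. Both routes lead to the transcription factor NF-kB. Mice that lack Eda, Edar or Edaradd have misshapen or missing teeth. Tnfrsf19, also called Troy, is a related receptor of the same family that marks several kinds of stem cell, and it does not bind ectodysplasin.

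Runx2 measured 62.6, 54.0 and 49.0 CPM (counts scaled to a common library size) in the cKO mice, against 79.7, 77.7 and 81.2 CPM in the control mice, so every cKO mouse lay below every control mouse. The difference was a log2 fold change of -0.53 with an SE of 0.089. By the quasi-likelihood test of edgeR (adjusted p = 0.0714) Runx2 missed the threshold of 0.05. DESeq2 called it lower in cKO mice (adjusted p = 0.000128), the only 1 of 12 alternative settings to do so. Counts over the whole gene include RNA of cells without Cre. Gli1 measured 75.0, 77.9 and 70.6 CPM in cKO mice, against 159, 89.7 and 207 CPM in control mice (edgeR adjusted p = 0.131, DESeq2 adjusted p = 0.00185). Only cKO mice carried Gli1-CreERT2, so its part in the Gli1 level cannot be told apart from that of losing Runx2. Control 1 was male by its Y-linked Ddx3y reads, and the other 5 mice were female. The labels name the tissue dental mesenchyme, and all 12 mesenchyme markers were detected, with sums of 24414 to 41842 CPM in cKO mice and 12816 to 21349 CPM in control mice. All 10 markers of ameloblasts, the epithelial cells that make enamel, were detected too, with sums of 23535 to 48410 CPM in cKO mice and 60455 to 79909 CPM in control mice, so the samples held epithelium as well as mesenchyme. In such bulk samples, fewer cells of a type and less RNA per cell cannot be told apart.

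Among the 6 genes, 1 passed the test over all genes, namely Eda2r, beside 0.026% of the 19264 tested genes (edgeR, adjusted p under 0.05), of which 0.0208% were higher and 0.00519% lower in cKO mice. DESeq2 called 3 of the 6, Eda2r, Edar and Tnfrsf19, beside 7.48% of the genes it tested. The cKO mice all lay above the control mice for Eda and Eda2r, beside 11.1% of tested genes. They all lay below the control mice for Edar and Tnfrsf19, beside 12.0% of tested genes. For Edaradd and Traf6 the groups overlapped. The median log2 fold change of the 6 was -0.28, against 4.8e-05 over all tested genes, and 2 were above 0 and 4 below. Eda2r no longer passed when cKO 1, cKO 2, control 1 or control 3 was left out, and 0, 0, 0 and 3 genes of the whole table then did. Since this comparison chose the genes, these counts are not evidence about the set.

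**Figure D1:**
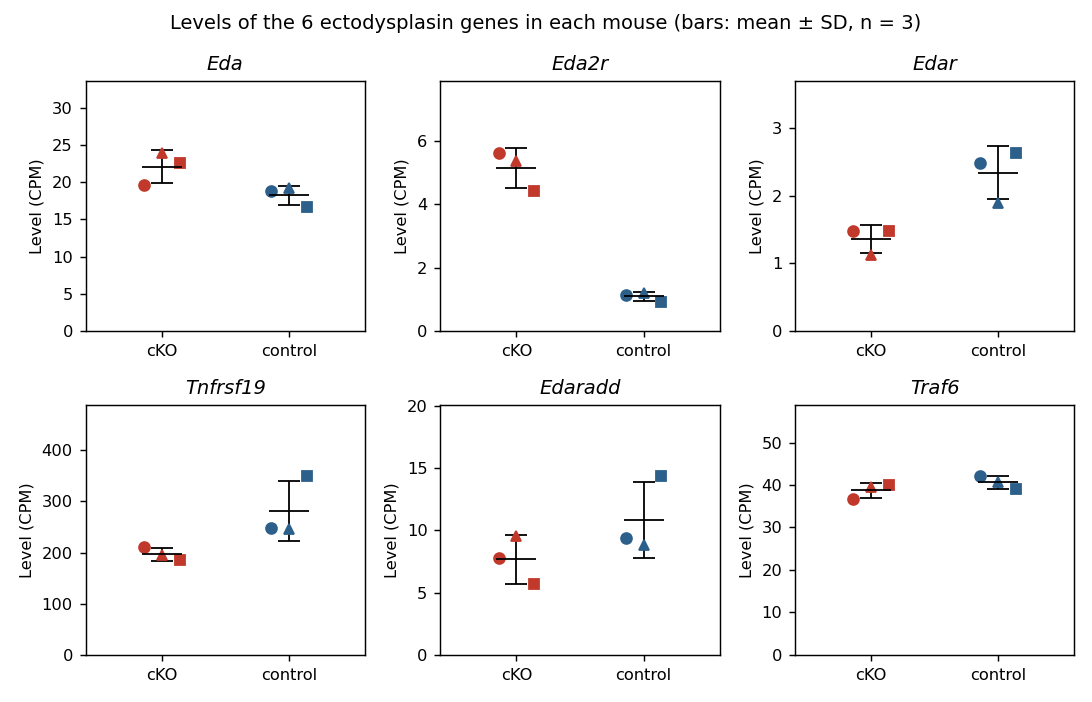
Level of each of the 6 genes in CPM (vertical axes, from 0) in the 3 cKO mice and the 3 control mice. Points are mice, with a shape for each replicate number, which pairs no mice across the groups, and bars are the mean ± SD. Eda2r lies between 4.42 and 5.63 CPM in cKO mice and between 0.929 and 1.20 CPM in control mice.

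The ligand gene Eda lies on the plus strand of chromosome X (99975606 to 100400762, build mm10). It had 1317, 1498 and 1408 estimated counts in cKO mice, against 1007, 1275 and 990 in control mice. Scaled to the library these were 19.7, 24.0 and 22.5 CPM in cKO mice, against 18.7, 19.2 and 16.7 CPM in control mice. The groups did not overlap, but the lowest cKO mouse was only 1.03 times the highest control mouse. The mean was 22.1 ± 2.20 CPM in cKO mice and 18.2 ± 1.31 CPM in control mice (SD, n = 3 each), a log2 fold change of 0.28 (SE 0.095). Set against the sum of the mesenchyme markers, the groups overlapped, with 0.539 to 0.982 CPM of Eda per 1000 CPM of markers in cKO mice and 0.878 to 1.30 in control mice. The part of those cells in the higher Eda level was not tested.

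Counts were made per gene, so they do not say which form of the ligand was present. The forms that bind Edar and Eda2r differ by the use of a splice donor 6 bases further on, bases 100395144 to 100395149 of chromosome X. In the GENCODE M21 annotation, 3 of the 9 coding Eda transcripts keep these bases at the junction, and 5 end the exon before them, of which 2 join it to the same next exon as shown. Both versions of the junction are shown because this difference decides which of the receptors below the protein binds, with the 6 bases in capitals and 27 bases on each side, on the plus strand of mm10:
Eda-201, with the 6 bases (A1 type): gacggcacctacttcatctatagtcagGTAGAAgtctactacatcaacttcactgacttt
Eda-205, without them (A2 type): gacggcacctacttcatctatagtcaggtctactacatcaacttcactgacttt

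Eda2r, the receptor of the A2 form, was the member with the largest difference. It lies on the minus strand of chromosome X (97333840 to 97377216). It had 377, 335 and 276 estimated counts in cKO mice, against 62, 80 and 55 in control mice. Scaled to the library, the levels were 5.63, 5.36 and 4.42 CPM in cKO mice, against 1.15, 1.20 and 0.929 CPM in control mice. Every cKO mouse was high and every control mouse low, and the lowest cKO mouse was 3.68 times the highest control mouse. The mean of 5.14 ± 0.634 CPM in cKO mice and 1.10 ± 0.146 CPM in control mice (SD, n = 3 each) gave a log2 fold change of 2.23 (SE 0.17), a 4.68-fold higher level in cKO mice. Ordered by log2 fold change, Eda2r stood at rank 41 of the 19264 tested genes. The control mice differed among themselves by a coefficient of variation of 13.3%, where counting alone gives 12.5% at these counts. In cKO mice it was 12.3%, where counting gives 5.56%.

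**Figure D2:**
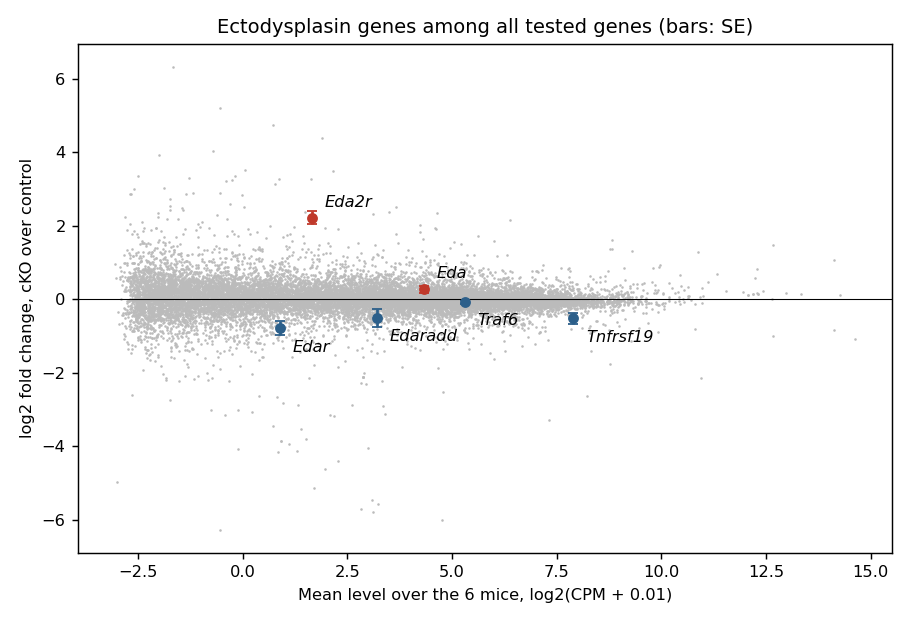
Log2 fold change of cKO over control (vertical axis) against the mean level over the 6 mice as log2(CPM + 0.01) (horizontal axis) for all 19264 tested genes in grey. The 6 ectodysplasin genes are coloured, red above 0 and blue below, with bars for the SE; Eda2r lies at 2.23, and the other 5 lie between -0.78 and 0.28.

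Genes beside Eda2r on the chromosome did not show a difference of that size. Within 1 Mb of it 5 genes were tested, and their log2 fold changes ran from -0.17 to 0.40. Within 1 Mb of Eda 19 genes were tested, with log2 fold changes from -0.43 to 1.70. The male mouse, control 1, did not stand apart for either X-linked member: its Eda2r level of 1.15 CPM and its Eda level of 18.7 CPM each lay between those of the 2 other control mice. Over 510 X-linked genes with a mean of at least 1 CPM, the median log2 ratio of control 1 to the mean of the other 5 mice was 0.0093, against 0.0023 for 14595 autosomal genes. The only male mouse was a control, and the part of sex or of chromosome position in the Eda2r level was not tested.

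The promoter of Eda2r is printed because this gene carried the largest difference. The RefSeq window on GRCm38.p6 (the assembly of mm10) covers chrX:97377160-97377459, minus strand, from 250 bases before to 50 bases after the transcription start, read 5′ to 3′:
Eda2r promoter: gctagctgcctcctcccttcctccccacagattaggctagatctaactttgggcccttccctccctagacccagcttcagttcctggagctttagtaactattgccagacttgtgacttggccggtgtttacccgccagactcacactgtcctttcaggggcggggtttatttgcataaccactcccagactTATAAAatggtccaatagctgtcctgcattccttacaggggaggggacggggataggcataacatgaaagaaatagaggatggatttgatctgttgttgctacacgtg
The capitals mark a TATA box motif, TATAAA, whose first base is 58 bases before the annotated start. Searched on both strands, this motif was in 13.6% of 32851 promoter windows of the same length. Among the 7 windows of the 6 genes, a RUNX core motif occurred in that of Traf6 (TGTGGT, as its reverse complement, in 16.8% of all windows) and in that of Edaradd (TGCGGT, in 6.45% of all windows). The GLI motif TGGGTGGTC (0.253% of all windows), the p53 half-site motif (8.36%) and the NF-kB motif (8.46%) had no match in the 7 windows. A match is a description of the letters, and the absence of one concerns these windows alone.

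Edar, the receptor of the A1 form, went the other way from Eda2r. It lies on chromosome 10 (58600789 to 58675654, minus strand). Few reads came from it, with 99, 70 and 92 estimated counts in cKO mice, against 133, 126 and 156 in control mice. These were 1.48, 1.12 and 1.47 CPM in cKO mice, against 2.48, 1.89 and 2.64 CPM in control mice, with each cKO mouse below each control mouse. The highest cKO mouse was 0.780 times the lowest control mouse. The mean was 1.36 ± 0.205 CPM in cKO mice and 2.34 ± 0.390 CPM in control mice (SD, n = 3 each), a log2 fold change of -0.78 (SE 0.20). Counting alone gives a coefficient of variation of 10.8% in cKO mice and 8.54% in control mice, where 15.1% and 16.7% were found.

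Edar is a gene of epithelium, and the amounts of epithelial transcripts varied between the mice. The 12 markers of dental epithelium summed to 3185 to 4728 CPM in cKO mice and 3672 to 4672 CPM in control mice, which overlap. Of these markers, 9 had a log2 fold change below 0 and 3 above, with a median of -0.19, and none passed the test. Per 1000 CPM of these markers, Edar measured 0.313, 0.282 and 0.463 CPM in cKO mice, against 0.674, 0.472 and 0.564 CPM in control mice. The groups did not overlap, but the margin was narrow, with cKO 3 at 0.463 just below control 2 at 0.472. The summed level of the ameloblast markers, by contrast, was lower in all 3 cKO mice, as given above, although only 5 of the 10 markers had a log2 fold change below 0 and none passed the test. Per 1000 CPM of ameloblast markers, Edar measured 0.0412, 0.0231 and 0.0626 CPM in cKO mice, against 0.0410, 0.0303 and 0.0330 CPM in control mice, so the groups overlapped. Whether the amount of ameloblast RNA has a part in the lower Edar level was not tested.

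Within each mouse, the order of the receptors Eda2r and Edar differed by genotype. Per kb of exon, Eda2r was 2.35, 2.95 and 1.85 times Edar in the cKO mice, against 0.288, 0.392 and 0.218 times Edar in the control mice. All cKO mice therefore had more Eda2r than Edar transcript, and all control mice less. The mean ratio was 2.39 ± 0.552 in cKO mice and 0.299 ± 0.0877 in control mice (SD, n = 3 each). With the length of the longest coding transcript in place of all annotated exons, a setting chosen after seeing the data, the ratios averaged 2.96 in cKO mice and 0.371 in control mice.

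**Figure D3:**
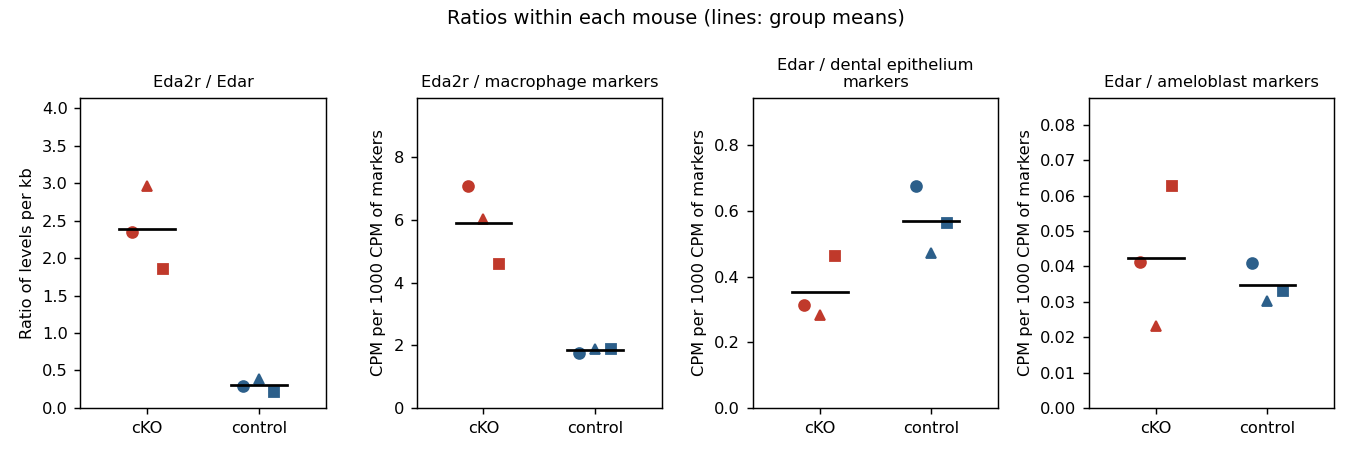
Ratios within each mouse, cKO left and control right, with points for mice and lines for group means. From left to right the panels give Eda2r over Edar per kb of exon, Eda2r per 1000 CPM of macrophage markers, Edar per 1000 CPM of dental epithelium markers and Edar per 1000 CPM of ameloblast markers. The groups are apart in the 3 panels on the left and overlap in the last.

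Tnfrsf19, the related receptor, was the most abundant of the 6. It lies on chromosome 14 (60963875 to 61046490, minus strand). It measured 211, 195 and 185 CPM in cKO mice, against 247, 246 and 349 CPM in control mice. The groups did not overlap, and control 3 stood well above the other 2 control mice. The mean was 197 ± 12.8 CPM in cKO mice and 281 ± 59.2 CPM in control mice (SD, n = 3 each), a log2 fold change of -0.51 (SE 0.14). Without control 3 the log2 fold change was -0.33. Per 1000 CPM of mesenchyme markers Tnfrsf19 measured 4.43 to 7.97 CPM in cKO mice and 11.6 to 27.2 CPM in control mice, and per 1000 CPM of ameloblast markers 4.02 to 7.87 CPM in cKO mice and 3.95 to 4.37 CPM in control mice. The groups were thus apart by the first measure and overlapped by the second. They were apart as well per 1000 CPM of dental epithelium markers, with 44.5 to 58.2 CPM in cKO mice and 61.4 to 74.8 CPM in control mice. The part of these cell types was not tested.

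Of the adaptors, Edaradd, which links Edar to NF-kB (chromosome 13, 12472632 to 12520438, minus strand), measured 7.76, 9.57 and 5.65 CPM in cKO mice, against 9.35, 8.84 and 14.3 CPM in control mice. The groups overlapped, since cKO 2 lay above controls 1 and 2, and control 3 was the highest of all. The means of 7.66 ± 1.96 CPM in cKO mice and 10.8 ± 3.04 CPM in control mice (SD, n = 3 each) gave a log2 fold change of -0.50 (SE 0.25), which was -0.25 without control 3. Edaradd per 1000 CPM of ameloblast markers was 0.198 to 0.240 CPM in cKO mice and 0.142 to 0.179 CPM in control mice, with the cKO mice above, and per 1000 CPM of dental epithelium markers 1.64 to 2.41 CPM in cKO mice and 2.20 to 3.07 CPM in control mice, which overlap. The part of epithelium was not tested. Traf6, the ubiquitin ligase shared by many receptors (chromosome 2, 101678429 to 101701669, plus strand), was the steadiest member. It measured 36.7, 39.7 and 39.9 CPM in cKO mice, against 42.1, 40.8 and 39.0 CPM in control mice, a log2 fold change of -0.067 (SE 0.059) with overlapping groups.

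Per kb of exon, Tnfrsf19 was highest in both genotypes, with 41.5 ± 2.70 CPM per kb in cKO mice and 59.3 ± 12.5 CPM per kb in control mice (SD, n = 3 each). Traf6 followed with 4.92 ± 0.223 CPM per kb in cKO mice and 5.15 ± 0.194 in control mice, then Eda with 3.23 ± 0.322 in cKO mice and 2.67 ± 0.191 in control mice, then Edaradd with 1.15 ± 0.294 in cKO mice and 1.63 ± 0.456 in control mice. The receptors of ectodysplasin came last. In cKO mice Edar was lowest with 0.373 ± 0.0564 CPM per kb, below Eda2r with 0.872 ± 0.108. In control mice Eda2r was lowest with 0.186 ± 0.0248 CPM per kb, below Edar with 0.642 ± 0.107. Neighbours in the order had ranges that did not overlap, except Edaradd and Eda2r in cKO mice. Per kb, Eda2r was 0.273 times its ligand gene in cKO mice and 0.0695 times in control mice, and Edar 0.117 times in cKO mice and 0.243 times in control mice.

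**Figure D4:**
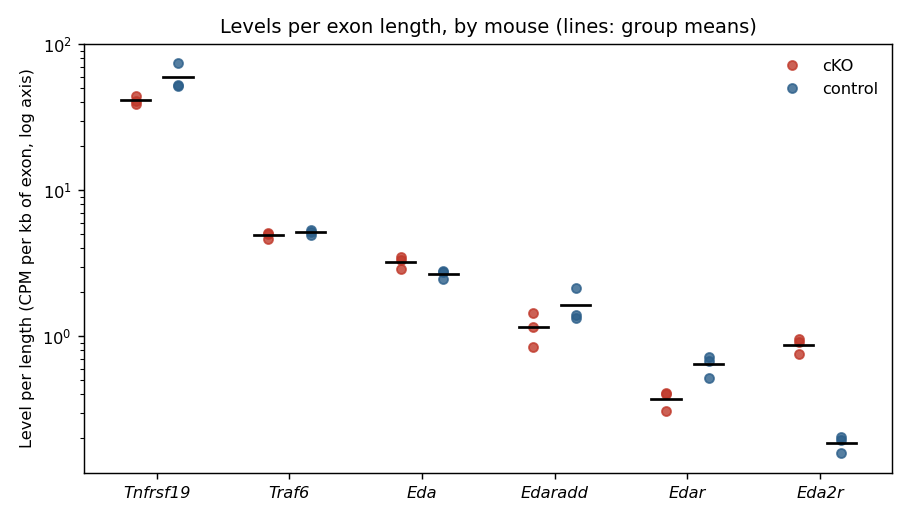
Level per exon length in CPM per kb (vertical log axis) of the 6 genes, ordered by their mean in control mice, with red points for cKO mice, blue points for control mice and lines for group means. Eda2r lies below Edar in control mice (0.186 and 0.642 CPM per kb) and above it in cKO mice (0.872 and 0.373 CPM per kb).

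Other genes were read from 5 lists that hold none of the 6. These were the pathway's chain to NF-kB, EDAR targets, other TNF receptors, other TNF ligands and p53 targets. Of 22 tested genes of the chain to NF-kB and of its subunits, 0 passed in either direction (edgeR adjusted p under 0.05, and 0 by DESeq2), 1 was higher and 0 lower at an unadjusted p under 0.05 (beside 8.71% and 8.55% of all tested genes), and the median log2 fold change was -0.011. The adaptor Traf1 measured 2.99, 6.13 and 6.87 CPM in cKO mice, against 2.81, 3.37 and 3.26 CPM in control mice, which overlap. The means were 5.33 ± 2.06 CPM in cKO mice and 3.15 ± 0.295 CPM in control mice (SD, n = 3 each, edgeR adjusted p = 0.256). The subunit genes Nfkb2 and Relb had log2 fold changes of 0.14 and 0.20 (edgeR adjusted p = 0.316 and 0.332).

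Of 18 tested genes known as EDAR targets in hair, skin and teeth, again 0 passed by edgeR, with 4 higher and 3 lower at an unadjusted p under 0.05 beside 8.71% and 8.55% of all tested genes. DESeq2 called 3 higher and 1 lower, beside 3.93% and 3.55% of all genes it tested. The median log2 fold change was 0.077. Sema7a, a membrane-anchored semaphorin, measured 65.6 ± 8.61 CPM in cKO mice and 40.8 ± 6.57 CPM in control mice (edgeR adjusted p = 0.0878). The chemokine Cx3cl1 measured 25.5 ± 4.87 CPM in cKO mice and 15.4 ± 1.74 CPM in control mice (edgeR adjusted p = 0.0878), and the chemokine Cxcl16 11.5 ± 1.05 CPM in cKO mice and 8.89 ± 0.321 CPM in control mice (edgeR adjusted p = 0.131). The target that DESeq2 called lower was the hedgehog ligand Shh, named here after its values were seen. It measured 211, 163 and 123 CPM in cKO mice, against 246, 274 and 352 CPM in control mice without overlap (edgeR adjusted p = 0.131, DESeq2 adjusted p = 0.00356, log2 fold change -0.81). Shh is made by dental epithelium, whose summed markers overlapped between the groups, while the summed ameloblast markers were lower in cKO mice with a median log2 fold change of 0.61 over the 10 genes. The part of these cells was not tested.

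Of 23 other tested genes of the TNF receptor family, 0 passed by edgeR, with 5 higher and 2 lower at an unadjusted p under 0.05, beside 8.71% and 8.55% of all tested genes. DESeq2 called 2 higher and 2 lower, beside 3.93% and 3.55% of the genes it tested. Their log2 fold changes ran from -1.04 to 0.65, with a median of 0.17, 17 above 0 and 6 below, so none was as high as Eda2r. The highest, Tnfrsf23, a decoy receptor, measured 5.43 ± 0.443 CPM in cKO mice and 3.46 ± 0.348 CPM in control mice (edgeR adjusted p = 0.0878). Cd27, a lymphocyte receptor, measured 1.14 ± 0.149 CPM in cKO mice and 2.36 ± 0.520 CPM in control mice (edgeR adjusted p = 0.0881). Tnfrsf1b, a TNF receptor of immune cells, had a log2 fold change of 0.43 (edgeR adjusted p = 0.0931). Of 10 other tested TNF ligand genes 0 passed by either tool, and 0 were higher and 1 lower at an unadjusted p under 0.05, beside 8.71% and 8.55% of all tested genes. That gene, the osteoclast factor Tnfsf11, measured 0.299, 0.304 and 0.160 CPM in cKO mice, against 0.596, 0.271 and 0.726 CPM in control mice, which overlap (edgeR adjusted p = 0.279). Tnfsf10 had a log2 fold change of 0.27 (edgeR adjusted p = 0.303), with overlapping groups. Tnfsf18 had few counts, with 11, 8 and 37 in cKO mice against 9, 7 and 2 in control mice, which overlap. Its log2 fold change was 1.52 (edgeR adjusted p = 0.358), and 0.53 without cKO 3.

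Eda2r is also known as a gene that p53, the transcription factor of the DNA damage response, switches on. Of 32 other tested p53 target genes 0 passed by edgeR. At an unadjusted p under 0.05, 12 were higher and 0 lower, beside 8.71% and 8.55% of all tested genes, and DESeq2 called 7 higher and 0 lower, beside 3.93% and 3.55% of the genes it tested. Their log2 fold changes ran from -0.30 to 0.69, with a median of 0.16, 22 above 0 and 10 below. An earlier reading of these data already had p53 targets higher as a group, so these counts are no independent evidence. The RNA-binding protein gene Zmat3 measured 53.3, 47.9 and 43.5 CPM in cKO mice, against 34.4, 34.5 and 35.4 CPM in control mice and so was higher in all 3 cKO mice (edgeR adjusted p = 0.0695). The epoxide hydrolase gene Ephx1 had a log2 fold change of 0.59 (edgeR adjusted p = 0.0645) and the cell death gene Bbc3 one of 0.48 (edgeR adjusted p = 0.0918). Trp53 itself, which encodes p53, measured 52.1, 56.6 and 54.1 CPM in cKO mice, against 54.0, 53.7 and 57.0 CPM in control mice, with overlapping groups.

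**Figure D5:**
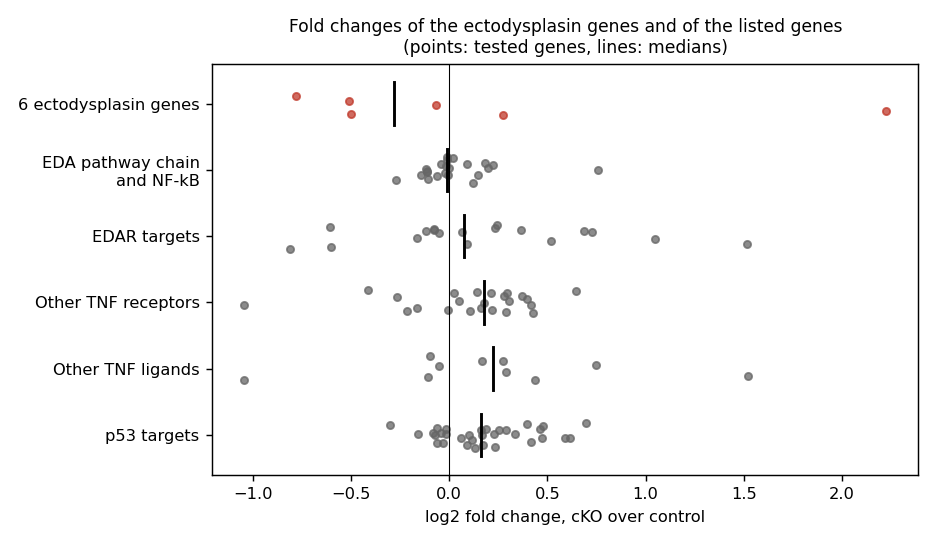
Log2 fold change of cKO over control (horizontal axis) for the 6 ectodysplasin genes in red and the tested genes of the 5 lists in grey, with vertical lines for medians and a random vertical offset within each row. Eda2r at 2.23 lies to the right of all listed genes, whose highest value is 1.52.

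Among the genes whose levels followed Eda2r most closely over the 6 libraries, out of 15122 others with a mean of at least 1 CPM, were H2-DMa, Pop4, Ms4a14 and Itgb2, with Pearson correlations of log2(CPM + 0.5) of 0.994, 0.994, 0.993 and 0.992. A correlation of at least 0.9 was reached by 420 genes, or 2.78%, and any gene with a difference between the genotypes and little spread within them scores high. For these 4 the cKO mice lay above the control mice, by log2 fold changes of 0.45, 0.73, 1.06 and 0.42, and none was near the 2.23 of Eda2r. With the group means taken away, their correlations with Eda2r were 0.800, 0.821, 0.744 and 0.803. The 4 genes were picked by their correlation over the same libraries, so these values are no separate check. H2-DMa, of antigen presentation, and Itgb2, a leukocyte integrin, are genes of immune cells, and the part of such cells was not tested.

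Summed markers of some other cell types were apart between the genotypes, and those of others overlapped. None of these markers passed the edgeR test. All 9 macrophage markers had a log2 fold change above 0. They summed to 796 to 964 CPM in cKO mice and 494 to 655 CPM in control mice. Per 1000 CPM of these markers, Eda2r measured 7.07, 6.02 and 4.58 CPM in cKO mice, against 1.76, 1.90 and 1.88 CPM in control mice, so the groups were apart on this scale too. The 8 endothelial markers summed to 622 to 650 CPM in cKO mice and 528 to 578 CPM in control mice, and Eda2r per 1000 CPM of them was 6.80 to 8.79 CPM in cKO mice and 1.76 to 2.26 CPM in control mice. Per 1000 CPM of mesenchyme markers Eda2r was 0.106 to 0.220 CPM in cKO mice and 0.0541 to 0.0725 CPM in control mice. The 8 tested neutrophil and marrow markers summed to 104, 101 and 23.2 CPM in cKO mice and 30.2, 17.8 and 37.9 CPM in control mice, with cKO 3 within the range of the control mice. Eda2r per 1000 CPM of these markers was 53.9, 53.3 and 190 CPM in cKO mice, against 38.3, 67.4 and 24.5 CPM in control mice, so on this scale the groups overlapped. The 8 tested skeletal muscle markers summed to 360 CPM in control 1 and to between 13.0 and 16.5 CPM in the other 5 mice, while Eda2r in control 1 lay between the other 2 control mice. Odontoblast markers summed to 7913 to 14253 CPM in cKO mice and 4247 to 6601 CPM in control mice, and Schwann cell markers to 116 to 138 CPM in cKO mice and 147 to 194 CPM in control mice. No marker of these lists was at 0 in all libraries. Their part in the Eda2r level was not tested.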

How the data were processed

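RNA of the proximal incisor was sequenced with single-end reads of 75 cycles in 3 cKO and 3 control mice, which the labels number as separate animals. Per the submitters' processing notes, STAR 2.6.1d, Partek and the build mm10 were used. Not given in the sources used here were the annotation, counting settings, and how strand and multiply matching reads were handled. The authors deposited estimated counts for 25700 genes, of which 45.6% to 48.0% of values per library were whole (tolerance 1e-09). A second table deposited by the authors holds a normalized signal for 20676 genes, each value being the count plus 1 times a factor of the library.

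The libraries held 53525185 to 66694240 counts, so a single count equals 0.0149 to 0.0186 CPM. Estimated counts were rounded, filtered with filterByExpr (minimum count 10, minimum total 15), scaled by TMM and tested with edgeR 4.0.16 (quasi-likelihood F-test, two-sided, Benjamini-Hochberg over 19264 genes, threshold 0.05) with no covariate, using all 6 libraries and R 4.3.3. Each SE was derived from the log2 fold change and the square root of F. Alternatives were DESeq2 1.42.0 on the same genes, limma 3.58.1 on the normalized signal (log2) and with voom, upper-quartile scaling, no filter, a filter of 1 CPM in 3 libraries, and leaving out each mouse. The code was tested on simulated data. Replicates were compared by chi-square per degree of freedom (46.0 to 73.3 over 6 pairs), and none repeated another.

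Exon lengths are unions of GENCODE M21 exons, and no member shares exon bases with another gene. The 6 genes and the 5 gene lists and 9 marker lists were chosen with earlier results of these data known. From each list the genes that passed are named, or else the 3 of lowest p, and the 5 genes most like Eda2r, of which 1 is not reported here. Promoters matched by symbol for 6 of 6 genes. Coordinates are 1-based, with the deposited end reduced by 1 to the last base.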

Additional observations from a re-analysis of the deposited data

How the results depend on the processing

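The log2 fold change of Eda2r stayed between 2.12 and 2.32 when each mouse was left out in turn and between 2.21 and 2.23 under the 6 other settings. All 6 members kept their sign under the 12 alternatives: Eda ran from 0.22 to 0.36, Edar from -0.91 to -0.65, Edaradd from -0.68 to -0.25, Tnfrsf19 from -0.60 to -0.33 and Traf6 from -0.096 to -0.027. The number of genes that passed was less stable. It was 5 by edgeR, 1327 by DESeq2 (Eda2r, Edar and Tnfrsf19 among them), 0 by limma on the authors' normalized signal, and ran from 0 to 72 without single mice. It was 0 without cKO 1, without cKO 2 or without control 1 (3278, 2700 and 3103 genes at an unadjusted p under 0.05), 3 without control 3, 8 without cKO 3 and 72 without control 2. Eda2r passed in 2 of the 6 fits without a mouse and in 7 of all 12 alternatives, and it did not pass without cKO 1, cKO 2, control 1 or control 3, or with limma on the normalized signal, where 2999 genes had an unadjusted p under 0.05. The cause was not tested. The log2 fold change of Trp53 ran from -0.041 to 0.016 without single mice, its sign turning without cKO 1 and without control 3. In the 5 gene lists 0 genes passed under every edgeR and limma setting and 15 entries under DESeq2.

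No paired analysis was possible because the labels mention pairs of samples without naming which mice form them. With 55 to 80 counts per library, counting limits the precision of Eda2r in control mice, and gene counts do not separate splice forms. No group had the 4 samples that a search for outlying mice needs.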
